A study of Mus musculus with 12 samples.

Results

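Open chromatin of mouse gastrula cells with a moderate level of the transcription factor FoxA2 was set against that of cells in which FoxA2 was not seen. The comparison used the peak list of the wild-type FoxA2-middle cells (WT Middle) and that of the wild-type FoxA2-negative cells (WT Negative), restricted to the autosomes. Lines with the same chromosome, start and end were merged into 1 peak, which left 44539 WT Middle and 38439 WT Negative peaks, 82978 of the 249098 autosomal peaks of the series. A peak that shared at least 1 bp with a peak of the other list was called shared, and the others are called Middle-only and Negative-only here. The question was which regions were open at 1 FoxA2 level and not at the other.

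Accessibility was measured by ATAC-seq, in which a transposase cuts and tags open DNA, in cells of embryos at embryonic day 7.5. Cells of both groups were homozygous for a knock-in FoxA2-WT-tagRFP allele, a full-length FoxA2 joined by a linker to the red fluorescent protein tagRFP, on a mixed C57Bl6/J x CD-1 background. The Middle gate ran from above the autofluorescence of untagged wild-type cells up to the brightest signal of heterozygous cells, and the Negative gate took cells without tagRFP signal. The same labels describe a WT High gate and 3 groups homozygous for an allele without 10 residues of a FoxA2 alpha helix (dHx), which were used here only for looking peaks up. The series held 12 samples in 6 groups of 2, of which 4 samples belong to the groups compared. About 10 embryos of both sexes were pooled for a sort, their extraembryonic part was removed, and libraries were made from 2000 to 5000 cells. Both groups were therefore mixtures of whatever cell types fell into a gate, and for such mixtures fewer cells of a type and a weaker signal per cell cannot be told apart.

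FoxA2 is a forkhead transcription factor known as a pioneer factor, able to bind its sites on nucleosomes. In the mouse gastrula it is known from the visceral endoderm, the anterior primitive streak, the definitive endoderm, the node and the notochord, while most mesoderm and the neural plate beyond the floor plate lack it. Other endoderm factors, among them Sox17, Gata4, Gata6 and Hnf4a, act beside it in the same tissues.

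Only 5.67% of the Middle-only and 8.71% of the Negative-only peaks lay on a promoter window (defined below), so promoters do not stand for the unshared regions. The promoters below are examples with a peak in 1 of the lists only, at selected genes. They are the 250 bases before the RefSeq transcription start (build GRCm38.p6, the assembly mm10 names), read in the direction of transcription. Capitals mark each match, on either strand, to 1 of 5 short motifs: TGTTTAC and TATTTAC of forkhead factors, AGATAA of GATA factors, ACAAAG of SOX factors and TCACAC of T-box factors. The genes were chosen after their values were seen, among promoters with a peak in 1 of the lists only and at least 1 motif match. The first 5 had a WT Middle peak and no WT Negative peak on the promoter window. They are Fgb (chr3:83049864-83050113, minus strand), a fibrinogen chain made by the visceral endoderm, Afp (chr5:90490464-90490713, plus strand), which encodes alpha-fetoprotein, Foxa1 (chr12:57546112-57546361, minus strand), a forkhead gene related to FoxA2, 9030622O22Rik (chr2:148040349-148040598, minus strand), a gene that lies beside Foxa2, and Otx2 (chr14:48662735-48662984, minus strand), a homeobox gene of anterior visceral endoderm and anterior neural plate. The last 2 had a WT Negative peak only: Sox2 (chr3:34649745-34649994, plus strand), a factor of epiblast and neural plate, and Zic1 (chr9:91365769-91366018, minus strand), a zinc-finger gene of the dorsal neural plate and somites.
Fgb: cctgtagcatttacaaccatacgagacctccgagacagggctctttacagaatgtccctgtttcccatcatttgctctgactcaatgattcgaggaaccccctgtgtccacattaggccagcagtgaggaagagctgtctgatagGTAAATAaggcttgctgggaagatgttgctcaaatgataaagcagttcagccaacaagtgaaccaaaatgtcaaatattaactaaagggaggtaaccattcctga
Afp: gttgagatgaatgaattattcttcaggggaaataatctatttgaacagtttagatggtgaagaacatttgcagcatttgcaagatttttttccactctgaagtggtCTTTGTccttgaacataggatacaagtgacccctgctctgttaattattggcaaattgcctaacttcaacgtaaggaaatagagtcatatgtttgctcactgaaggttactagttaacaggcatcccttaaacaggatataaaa
Foxa1: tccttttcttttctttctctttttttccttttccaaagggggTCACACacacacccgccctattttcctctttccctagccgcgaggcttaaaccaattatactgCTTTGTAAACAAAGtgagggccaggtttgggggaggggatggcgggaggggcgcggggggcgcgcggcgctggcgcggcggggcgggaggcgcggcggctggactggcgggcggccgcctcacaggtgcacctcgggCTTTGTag
9030622O22Rik: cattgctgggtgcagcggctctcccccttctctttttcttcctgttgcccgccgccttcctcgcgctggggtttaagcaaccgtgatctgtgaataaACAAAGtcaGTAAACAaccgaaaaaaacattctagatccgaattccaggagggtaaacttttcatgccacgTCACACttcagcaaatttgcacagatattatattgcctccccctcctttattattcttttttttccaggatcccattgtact
Otx2: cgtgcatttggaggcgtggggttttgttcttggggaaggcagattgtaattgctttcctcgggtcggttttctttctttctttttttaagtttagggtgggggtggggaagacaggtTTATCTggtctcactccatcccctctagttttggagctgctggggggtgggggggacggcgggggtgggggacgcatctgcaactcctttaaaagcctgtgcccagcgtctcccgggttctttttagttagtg
Sox2: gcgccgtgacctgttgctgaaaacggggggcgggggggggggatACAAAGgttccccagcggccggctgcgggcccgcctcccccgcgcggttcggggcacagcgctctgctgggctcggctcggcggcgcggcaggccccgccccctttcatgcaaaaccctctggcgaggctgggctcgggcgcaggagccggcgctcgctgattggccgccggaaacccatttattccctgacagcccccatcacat
Zic1: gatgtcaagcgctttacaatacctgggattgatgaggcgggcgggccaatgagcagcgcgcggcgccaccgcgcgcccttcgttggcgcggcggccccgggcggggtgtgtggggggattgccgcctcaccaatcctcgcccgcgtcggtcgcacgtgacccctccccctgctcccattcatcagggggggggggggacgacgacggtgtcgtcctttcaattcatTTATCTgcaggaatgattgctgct

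The forkhead letters of Fgb lay 105 to 99 bases before the start and those of Foxa1 lay 141 to 135 bases before it. In Foxa1 the forkhead letters overlapped a SOX match on either side, so the capitals run together. The 9030622O22Rik promoter had a forkhead match 144 to 138 bases before the start. All 3 forkhead matches lay inside the WT Middle peak on the promoter, and so did the SOX match of Afp. The GATA matches of Otx2 and Zic1 and the SOX match of Sox2 lay outside the peak. These matches describe the letters only and are not known to be bound.

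The names of the peaks mark a list as pooled over the 2 samples of its group, so values of single samples were not used here, no difference between the lists could be tested, and intervals on shares are Clopper-Pearson 95% intervals that cover counting error only. The WT Middle list covered 22.5 Mb with a median peak width of 386 bp, and the WT Negative list covered 21.0 Mb with a median of 427 bp. The mean background that the authors' scores imply was 1.50 reads deep per base in WT Middle and 1.08 in WT Negative, and the lowest peaks stood 4.01-fold and 4.61-fold above it. Both lists held places where peaks crowd, and 13 bins of 1 Mb (255 or more peaks of both lists together) held 5.51% of all WT Middle and 4.68% of all WT Negative peaks.

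Of the WT Middle peaks, 21284 had no WT Negative peak (47.8%, interval 47.3 to 48.3%), and of the WT Negative peaks 15299 had no WT Middle peak (39.8%, 39.3 to 40.3%). The bases in common came to 11.5 Mb, which is 51.1% of the WT Middle and 54.7% of the WT Negative bases. The WT Middle list is the longer one, and with it shortened by score to the length of the other the shares were 43.8% in WT Middle and 43.7% in WT Negative, as lists of equal length have about equal numbers left over. The gap between 47.8% and 39.8% therefore moved with list length.

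Restricted to the 20000 peaks with the highest score in a list, each looked up in the whole other list, 5762 WT Middle peaks were Middle-only (28.8%, 28.2 to 29.4%) and 4236 WT Negative peaks were Negative-only (21.2%, 20.6 to 21.8%). The lists searched still differ in length. Looked up in the 20000 strongest of the other list, the shares were 42.3% in WT Middle and 42.2% in WT Negative. The score is the authors' significance of a peak (−log10), used here only to order peaks within a list. The last peak inside had a score of 8.45 in WT Middle, where 1581 peaks with this score were inside and 400 outside, and the next lower score was 7.47. In WT Negative it was 6.07, with 1401 such peaks inside and 1456 outside, and the next lower score was 5.09. Peaks of the tied score were unshared at near the same rate on either side of the limit, 44.8% inside and 42.5% outside in WT Middle, and 45.0% inside and 44.2% outside in WT Negative. Few shared peaks were near the overlap limit, with 199 WT Middle and 182 WT Negative peaks sharing under 50 bp.

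Unshared peaks were mostly low and narrow. The Middle-only peaks had a median score of 4.73 and a median width of 307 bp, against 10.5 and 495 bp for the shared peaks of the same list. The Negative-only peaks had 4.16 and 324 bp, against 9.21 and 532 bp for the shared peaks of their list. With each list divided by score into 10 classes of equal size, 74.4% of the WT Middle and 71.4% of the WT Negative peaks of the lowest class were unshared. In the highest class 9.86% of the WT Middle peaks (9.0 to 10.8%) and 4.24% of the WT Negative peaks (3.63 to 4.93%) were, so 439 of the strongest WT Middle and 163 of the strongest WT Negative regions lacked any peak in the other cells. The spread by width was as wide, from 70.1% of WT Middle and 64.1% of WT Negative peaks under 300 bp down to 4.94% and 2.25% of those of 2000 bp or more.

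**Figure D1:**
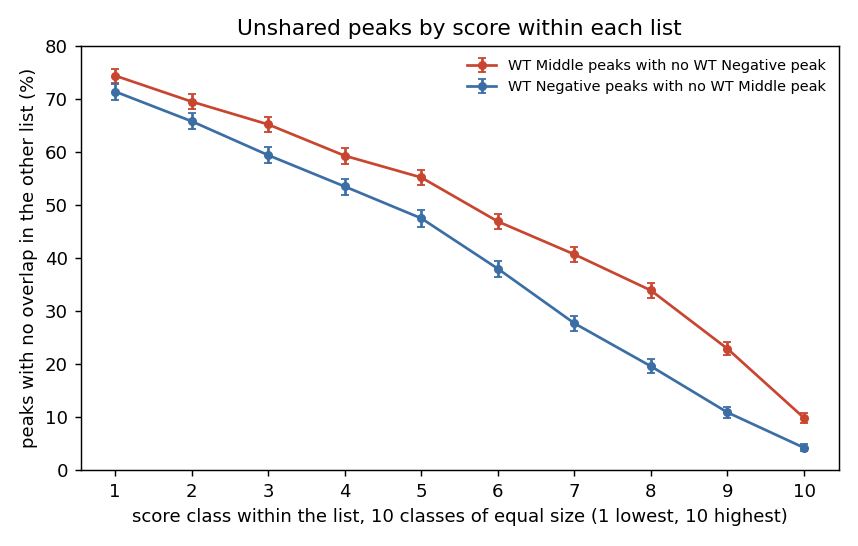
Share of peaks with no overlapping peak in the other list (vertical axis, percent) by class of score within the own list (horizontal axis, 10 classes of equal size), for WT Middle (red) and WT Negative (blue); bars are Clopper-Pearson 95% intervals. Both lines come down at every step, to 9.86% in WT Middle and 4.24% in WT Negative in the highest class.

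Unshared regions lay mostly outside promoter windows in both lists. A promoter window here is the stretch from 250 bases before to 50 bases after a RefSeq transcription start, and windows on chromosome 18 were not used here. Of the WT Middle peaks on a promoter window 13.7% were Middle-only, against 56.0% of those elsewhere, and of the WT Negative peaks 14.9% were Negative-only on a window, against 47.2% elsewhere. Outside the windows but within 1 kb of a start, 44.5% of WT Middle peaks were Middle-only and 51.1% of WT Negative peaks were Negative-only. At 10 to 100 kb from a start the shares were 57.3% and 45.4%, so in WT Negative the low share was limited to the windows. Among the 20000 strongest peaks of a list the shares were 5.74% on windows and 38.1% elsewhere in WT Middle, and 6.81% and 27.9% in WT Negative. The median distance to the nearest start was 19.0 kb for Middle-only peaks and 6.87 kb for the shared peaks of WT Middle. It was 16.4 kb for Negative-only peaks and 7.16 kb for the shared peaks of WT Negative. Outside the windows, inside or outside a gene body made little difference, with 55.0% and 57.1% Middle-only in WT Middle and 46.4% and 48.0% Negative-only in WT Negative.

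The peaks were also looked up in the other 4 lists, which the choice of peaks did not use. Of the 5762 strong Middle-only peaks, 65.7% (64.5 to 66.9%) had a peak in dHx Middle, 50.7% in WT High, 43.6% in dHx High and 35.3% (34.1 to 36.6%) in dHx Negative. Of the 4236 strong Negative-only peaks, 66.3% (64.9 to 67.7%) had one in dHx Negative, 40.2% in WT High, 31.8% in dHx High and 25.9% (24.6 to 27.2%) in dHx Middle. Each strong set was thus found most often in the list of its own gate from the other genotype and least often in that of the opposite gate. Of all 21284 Middle-only peaks 40.5% were in dHx Middle, 35.5% in WT High, 28.6% in dHx High and 29.4% in dHx Negative, so over the whole list dHx High and not the opposite gate was lowest. Of all 15299 Negative-only peaks 47.1% were in dHx Negative, 28.3% in WT High, 23.4% in dHx High and 18.4% in dHx Middle. Present in dHx Middle and absent from dHx Negative were 42.3% of the strong Middle-only peaks, with 11.9% the other way round. Present in dHx Negative and absent from dHx Middle were 45.2% of the strong Negative-only peaks, with 4.75% the other way round. These splits were partly there before the unshared peaks were picked out. Of all 20000 strong WT Middle peaks 15.4% were in dHx Middle and not in dHx Negative, and 10.0% the other way round. Of all 20000 strong WT Negative peaks 20.3% were in dHx Negative and not in dHx Middle, and 3.29% the other way round. The strong shared peaks were found more often in every list, 80.6% to 92.4% of those of WT Middle and 79.1% to 93.3% of those of WT Negative. In none of the 4 lists were 16.1% of the strong Middle-only and 21.0% of the strong Negative-only peaks, against 1.55% of the shared peaks of WT Middle and 1.93% of those of WT Negative. The 4 lists differ in length and in implied background (0.476 reads deep per base in dHx High to 1.57 in dHx Negative), and the part of this in the shares was not tested.

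**Figure D2:**
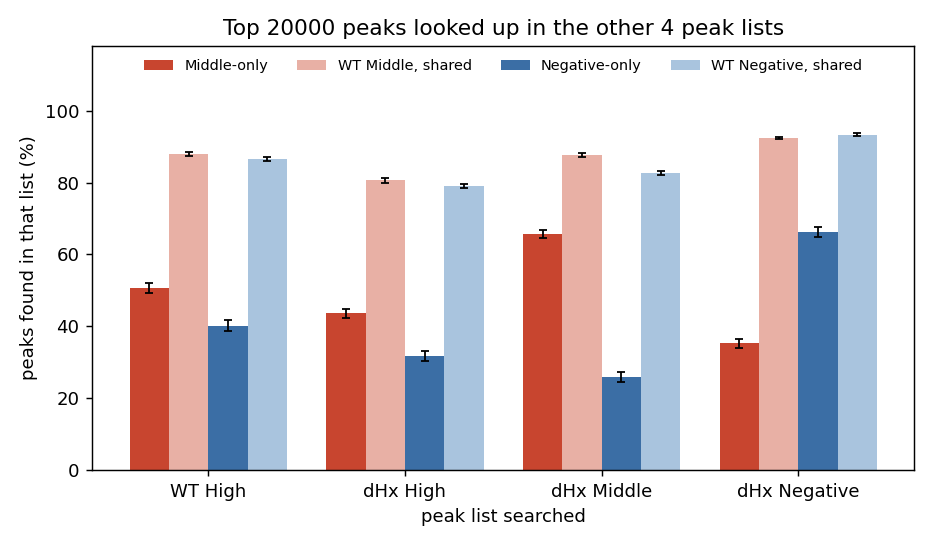
Share of the 20000 strongest peaks of WT Middle and of WT Negative that overlapped a peak of each other list (vertical axis, percent; horizontal axis, list searched), for unshared peaks (dark) and shared peaks (pale); bars are Clopper-Pearson 95% intervals. Middle-only peaks were highest in dHx Middle (65.7%) and Negative-only peaks in dHx Negative (66.3%).

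To describe the regions by gene, each peak was given to 1 protein-coding gene, the closest within 100 kb. Of the 40670 WT Middle peaks with such a gene 46.9% were Middle-only, and of the 34969 WT Negative peaks 38.5% were Negative-only. For the 20000 strongest peaks of a list these shares were 27.8% in WT Middle and 20.0% in WT Negative. Of the 16028 genes with a peak, 6209 (38.7%) had more Middle-only than Negative-only peaks and are said here to lean to the Middle side, 4175 (26.0%) leaned to the Negative side and 5644 had equal numbers. Counting the strongest peaks only, 24.1% of 12779 genes leaned to the Middle side and 16.9% to the Negative side. Genes of 16 lists of known function were read against these values. A nearest gene is a label of position, and the gene a region acts on is not known.

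Foxa2 itself (chr2:148042877-148046969, minus strand by its promoter entry) had 19 WT Middle peaks, 11 of them Middle-only, and 11 WT Negative peaks, 3 of them Negative-only. The peak at its start was shared, at chr2:148045600-148047046 in WT Middle and chr2:148045859-148046894 in WT Negative. It touched all 3 annotated promoter windows of Foxa2 in WT Middle and 1 of them in WT Negative, where it ended short of the window at the outermost start (chr2:148046920-148047219). Among its 20000-strongest peaks there were 13 in WT Middle, 6 of them Middle-only, and 4 in WT Negative, all shared. The strongest Middle-only peak of the locus, chr2:148065819-148066220 with a score of 35.3, lay 18.9 kb upstream of the gene and had a counterpart in dHx High and dHx Middle but not in WT High or dHx Negative. A second, chr2:148061464-148061710 with a score of 14.9, was found in dHx Middle alone of the 4 lists. The strongest Negative-only peak, chr2:148114710-148114930, had a score of 6.07 and lay 67.7 kb from the gene. It was in WT High and dHx Middle and not in dHx High or dHx Negative. The locus of the sorted factor thus had a shared peak at its start in both gates, wider in WT Middle, and its unshared regions lay mostly on the Middle side.

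Genes of the endoderm factors leaned to the Middle side. Of their 108 WT Middle peaks 72 were Middle-only (66.7%, 56.9 to 75.4%), and of their 52 WT Negative peaks 15 were Negative-only (28.8%, 17.1 to 43.1%). Of the 16 genes 13 leaned to the Middle side, none to the Negative side, and Foxa3, Elf3 and Cdx2 had equal numbers. Of the strongest peaks, 27 of 49 in WT Middle were Middle-only (55.1%), and 0 of 19 in WT Negative were Negative-only, with an upper limit of 17.6%. Foxa2 was used to sort the cells and is 1 of the 16.

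Prdm1, a zinc-finger repressor of the anterior endoderm and germ cell precursors, had 9 Middle-only of 12 WT Middle peaks, and its 3 WT Negative peaks were shared. The strongest, chr10:44464179-44464686 inside the gene, was in WT High, dHx High and dHx Middle and not in dHx Negative. Sox17, an HMG-box factor required for definitive endoderm, had 5 Middle-only of 9 WT Middle peaks, and its 4 WT Negative peaks were shared. Its strongest Middle-only peak, chr1:4538288-4538657, had a score of 46.7, lay 40.9 kb from the gene and recurred only in dHx Middle. Hnf4a, a nuclear receptor of the visceral endoderm and liver, had 5 Middle-only peaks in WT Middle and no peak in WT Negative. The Hnf4a peak at chr2:163540436-163541203 scored 32.5 and was seen in dHx High and dHx Middle. Foxa1 had 3 Middle-only of 4 WT Middle peaks and 1 shared peak in WT Negative, but its Middle-only peaks were low, at 4.73 or less. Otx2 had 5 Middle-only of 7 WT Middle peaks and 3 Negative-only of 5 WT Negative peaks, and 3 of its Middle-only and none of its Negative-only peaks were among the 20000 strongest.

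Genes of the visceral endoderm, the epithelium around the epiblast that takes up and secretes nutrients, leaned to the Middle side likewise. Of 75 WT Middle peaks 52 were Middle-only (69.3%, 57.6 to 79.5%) and of 32 WT Negative peaks 9 were Negative-only (28.1%, 13.7 to 46.7%). Among the strongest peaks 24 of 40 in WT Middle were Middle-only and 3 of 13 in WT Negative were Negative-only (23.1%). Of the 22 genes with a peak 18 leaned to the Middle side, and Trf, which encodes transferrin, alone leaned to the Negative side with 1 Negative-only peak and no WT Middle peak. Hnf4a, Gata6, Sox17, Foxa3 and Hhex stand in this list and among the endoderm factors. The others are genes of secreted and uptake proteins. Ttr, the thyroid hormone carrier transthyretin, had 3 Middle-only peaks in WT Middle and none in WT Negative. Apob, the main lipoprotein of the yolk sac endoderm, had 6 Middle-only of 8 WT Middle peaks, and its 2 WT Negative peaks were shared. Fgb and Afp had 2 Middle-only peaks each in WT Middle and no peak in WT Negative. Cubn, the uptake receptor cubilin, had 4 Middle-only of 5 WT Middle peaks and 1 Negative-only of 2 WT Negative peaks. Of these 52 Middle-only peaks 27 were in dHx Middle (51.9%), 13 in WT High (25%), 9 in dHx High (17.3%) and 6 in dHx Negative (11.5%). For the 72 Middle-only peaks of the endoderm factors the counts were 47 in dHx Middle (65.3%), 24 in WT High (33.3%), 29 in dHx High (40.3%) and 15 in dHx Negative (20.8%). Over all genes these shares were 40.8%, 35.4%, 28.9% and 29.8% in the same order of lists.

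Genes for surface and secreted proteins of the endoderm had shares near those over all genes. Their Middle-only share was 50.0% of 124 WT Middle peaks (40.9 to 59.1%), against 46.9% over all genes. Their Negative-only share was 32.6% of 89 WT Negative peaks (23.0 to 43.3%), against 38.5% over all genes. Of the 27 genes with a peak 16 leaned to the Middle side and 5 to the Negative side, where over all genes 38.7% and 26.0% did. Cdh1, which encodes the epithelial adhesion protein E-cadherin, had 7 Middle-only of 10 WT Middle peaks and 3 shared WT Negative peaks. Dkk1, a secreted Wnt inhibitor of the anterior endoderm, had 6 Middle-only of 9 WT Middle peaks and 3 shared WT Negative peaks. Cxcr4, a chemokine receptor used to mark definitive endoderm and also present in mesoderm, had 5 Middle-only of 7 WT Middle peaks and 4 Negative-only of 6 WT Negative peaks. Emb, which encodes the membrane protein embigin, had 9 Middle-only of 18 WT Middle and 5 Negative-only of 13 WT Negative peaks, and none of the 9 but 2 of the 5 were among the 20000 strongest of their list.

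**Figure D3:**
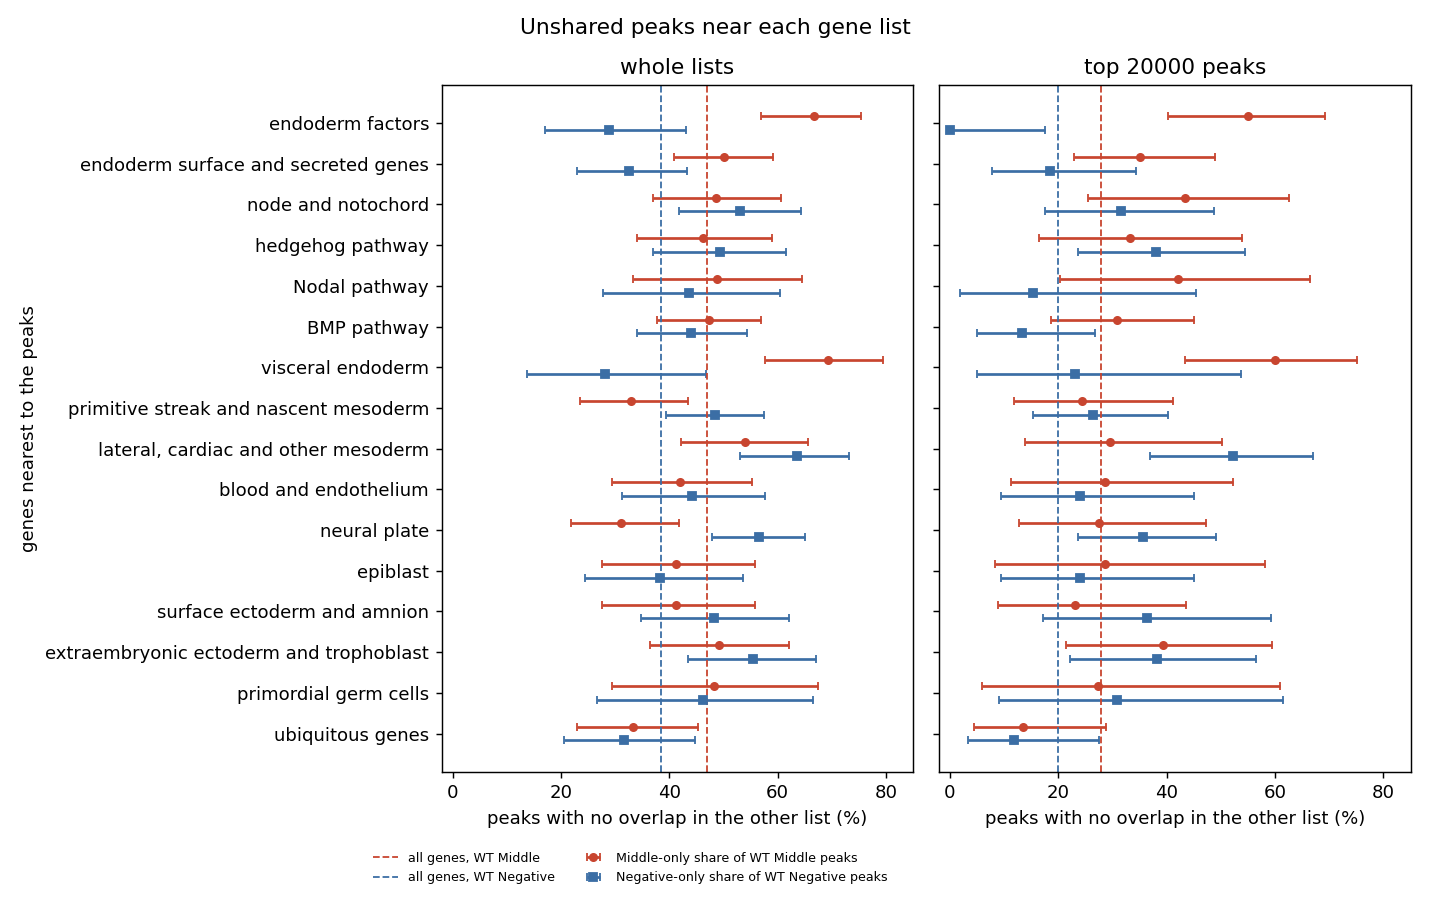
Middle-only share of WT Middle peaks (red) and Negative-only share of WT Negative peaks (blue) near the genes of 16 lists (horizontal axis, percent), for whole lists on the left and the 20000 strongest peaks on the right; bars are Clopper-Pearson 95% intervals and dashed lines the shares over all genes. Endoderm factors (66.7% and 28.8%) and visceral endoderm (69.3% and 28.1%) have red far to the right of blue, and neural plate (31.1% and 56.6%) has them the other way round.

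Node and notochord genes, the axial tissues that also make FoxA2, had a Middle-only share near that over all genes and a Negative-only share above it. Of 74 WT Middle peaks 48.6% were Middle-only, against 46.9% over all genes, and of 81 WT Negative peaks 53.1% (41.7 to 64.3%) were Negative-only, against 38.5% over all genes. Of the 24 genes with a peak 9 leaned to the Middle side and 12 to the Negative side. Among the strongest peaks the Middle-only share was 43.3% of 30 (25.5 to 62.6%), against 27.8% over all genes. The Negative-only share was 31.6% of 38 (17.5 to 48.7%), against 20.0% over all genes. Both intervals held the values over all genes, and 7 genes leaned to each side. Noto, a homeobox gene of the node and notochord, had 3 Middle-only of 4 WT Middle peaks and 1 shared peak in WT Negative. Its strongest, chr6:85415724-85416313, scored 28.5 and was in WT High, dHx High and dHx Middle and not in dHx Negative. Shh, the signal of the notochord and floor plate, had 3 Middle-only peaks in WT Middle and 1 Negative-only peak in WT Negative. Its strongest Middle-only peak, chr5:28563110-28563748, lay 96.0 kb from the gene and recurred in the same 3 lists as that of Noto. Gsc, a homeobox gene of the anterior streak and prechordal tissue, had 1 Middle-only of 3 WT Middle peaks and 5 Negative-only of 7 WT Negative peaks. Sox9, a factor of the notochord, neural crest and cartilage, had 3 Middle-only of 8 WT Middle and 6 Negative-only of 11 WT Negative peaks. Of the 36 Middle-only peaks of the list 24 were in WT High (66.7%) and 7 in dHx Negative (19.4%), against 35.4% and 29.8% over all genes.

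Signalling genes were split. Over all genes with a peak, 38.7% leaned to the Middle side and 26.0% to the Negative side. Of the 16 hedgehog genes 6 leaned to each side. Their Negative-only share was 49.3% of 69 WT Negative peaks (37.0 to 61.6%), against 38.5% over all genes. Among the strongest peaks it was 38.1% of 42 (23.6 to 54.4%), against 20.0% over all genes. By these peaks 4 hedgehog genes leaned to the Middle side and 8 to the Negative side. Hhip, a receptor that takes hedgehog ligands out of circulation and is itself a target of the pathway, had 5 Middle-only peaks in WT Middle and 2 Negative-only peaks in WT Negative. The transcription factor gene Gli2 had 4 Middle-only of 8 WT Middle and 7 Negative-only of 11 WT Negative peaks. Gas1, a co-receptor, had 1 Middle-only of 2 WT Middle and 6 Negative-only of 7 WT Negative peaks. In the Nodal list 7 of the 16 genes with a peak leaned to the Middle side and 5 to the Negative side. Nodal itself, the ligand that induces endoderm, had 3 Middle-only of 5 WT Middle peaks and 2 shared WT Negative peaks. None of the 3 was among the 20000 strongest, and their top score was 6.52. Lefty2, a secreted Nodal inhibitor of the mesoderm, had 1 shared WT Middle peak and 3 Negative-only of 4 WT Negative peaks. These Negative-only peaks were low too, at 4.16 or less. In the BMP list 14 of 23 genes leaned to the Middle side and 9 to the Negative side. On the Negative side, Nog had 3 Middle-only of 5 WT Middle and 6 Negative-only of 8 WT Negative peaks. Smad6 had 1 Middle-only of 8 WT Middle and 4 Negative-only of 11 WT Negative peaks. Smad7, an inhibitor of the pathway inside the cell, had 7 Middle-only of 9 WT Middle peaks and 2 shared WT Negative peaks, and Id2, a target of BMP signals, had 6 Middle-only of 8 WT Middle and 1 Negative-only of 3 WT Negative peaks.

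The neural plate genes leaned to the Negative side. Of their 90 WT Middle peaks 28 were Middle-only (31.1%, 21.8 to 41.7%), and of their 136 WT Negative peaks 77 were Negative-only (56.6%, 47.9 to 65.1%). Of 34 genes 21 leaned to the Negative side and 4, among them Sox11 and Pax3, to the Middle side. Among the strongest peaks the shares were 27.6% of 29 in WT Middle and 35.6% of 59 in WT Negative, against 27.8% and 20.0% over all genes, so the low Middle-only share of the whole list was not seen there. Pax2, a gene of the midbrain-hindbrain region and kidney, had 2 shared WT Middle peaks and 6 Negative-only of 8 WT Negative peaks. Pax6, a gene of forebrain and eye, had 1 Middle-only of 4 WT Middle and 6 Negative-only of 9 WT Negative peaks. Zic1 had 1 shared WT Middle peak and 5 Negative-only of 6 WT Negative peaks, the strongest at chr9:91361706-91362253 inside the gene with a score of 22.8. Sox2 had no WT Middle peak and 2 Negative-only peaks, both low, with a top score of 4.16. Meis2, a homeobox gene of neural plate and mesoderm, had 4 Middle-only of 10 WT Middle and 9 Negative-only of 15 WT Negative peaks. Of the 77 Negative-only peaks 40 were in dHx Negative (51.9%) and 15 in dHx Middle (19.5%), close to 47.7% and 19.1% over all genes.

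In the whole lists mesoderm genes had Negative-only shares above that over all genes and included several one-sided genes. In the primitive streak list, whose members pattern the streak and the mesoderm leaving it, 33.0% of 94 WT Middle peaks were Middle-only and 48.4% of 124 WT Negative peaks were Negative-only, with 7 genes on the Middle side and 15 on the Negative side. Lef1, which carries Wnt signals to their target genes, had 1 Middle-only of 4 WT Middle and 11 Negative-only of 14 WT Negative peaks. Eomes, a T-box factor of streak and endoderm, had 3 Middle-only of 8 WT Middle and 7 Negative-only of 12 WT Negative peaks. The strongest Middle-only peak given to Eomes, chr9:118393553-118393981, scored 39.5 and lay 84.2 kb from the gene. It was in WT High, dHx High and dHx Middle and not in dHx Negative. In the list of lateral, cardiac and other mesoderm 53.9% of 76 WT Middle (42.1 to 65.5%) and 63.5% of 96 WT Negative peaks (53.1 to 73.1%) were unshared. There, 8 genes leaned to the Middle side and 11 to the Negative side. Among the strongest peaks of this list 29.6% of 27 in WT Middle (13.8 to 50.2%) and 52.2% of 46 in WT Negative (36.9 to 67.1%) were unshared. By these peaks 5 genes were on the Middle side and 11 on the Negative side. The Negative-only shares of this list were above those over all genes, while the intervals of its Middle-only shares held the values over all genes. For the strongest streak peaks the Middle-only share was 24.3% of 37 (11.8 to 41.2%), against 27.8% over all genes. Their Negative-only share was 26.4% of 53 (15.3 to 40.3%), against 20.0%, so both intervals held the values over all genes. Mef2c, a factor of heart and skeletal muscle, had 1 shared WT Middle peak and 8 Negative-only of 9 WT Negative peaks, 6 of them among the 20000 strongest. Prrx1, a homeobox gene of limb and head mesenchyme, had 1 shared WT Middle peak and 6 Negative-only of 7 WT Negative peaks, and Hand1, a factor of lateral mesoderm and heart, had 6 Negative-only peaks and no WT Middle peak. Pdgfra, a growth factor receptor of mesoderm that also marks early endoderm, went against the list with 7 Middle-only of 9 WT Middle peaks and 2 shared WT Negative peaks.

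**Figure D4:**
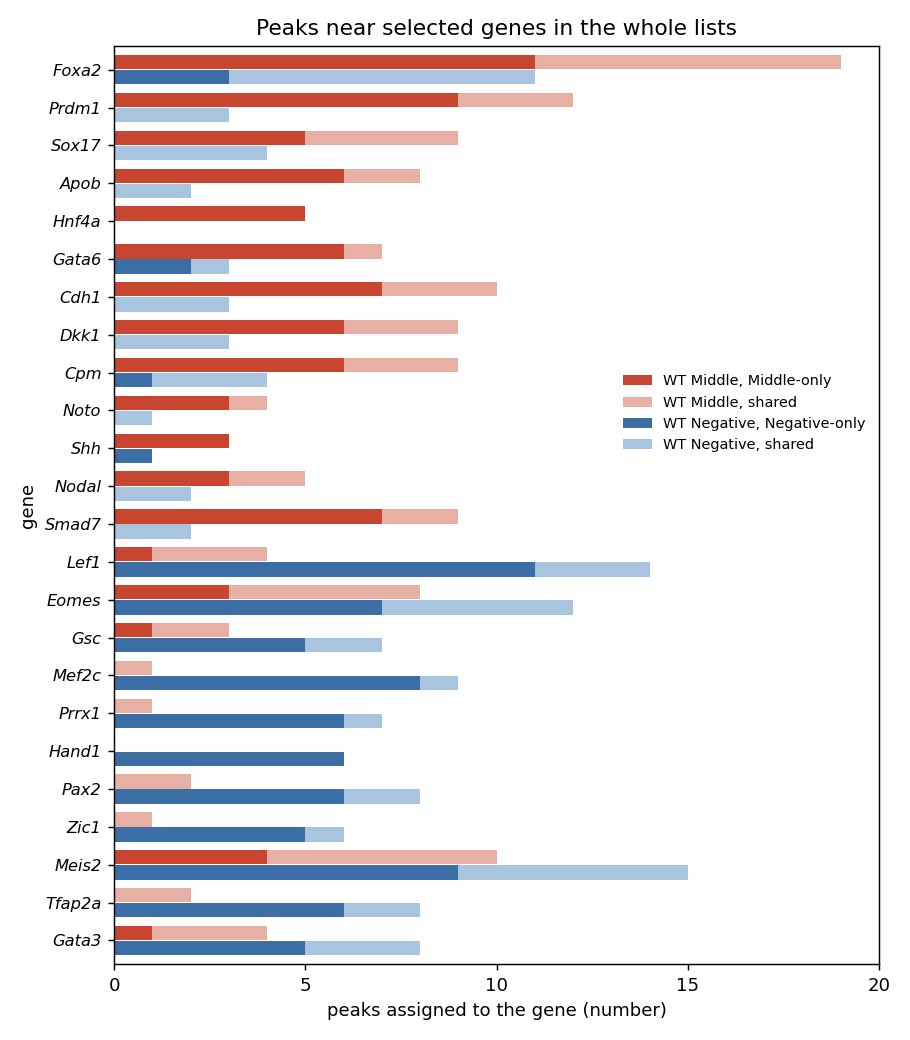
Number of peaks given to each gene (horizontal axis) in WT Middle (upper bar, red) and WT Negative (lower bar, blue), with unshared peaks dark and shared peaks pale, for 24 selected genes. Hnf4a has 5 peaks in WT Middle and none in WT Negative, and Hand1 has none in WT Middle and 6 in WT Negative.

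Genes of other cell types that the sorted tissue could hold were read against 46.9% Middle-only and 38.5% Negative-only over all genes. For blood and endothelium, epiblast, surface ectoderm and amnion, and germ cells the intervals of both shares held these values. Blood and endothelium had 41.9% of 62 WT Middle and 44.1% of 59 WT Negative peaks unshared. In this list 8 genes leaned to the Middle side and 7 to the Negative side, and 4 and 5 by the strongest peaks. Runx1, a factor of blood stem cells, had 7 Middle-only of 12 WT Middle and 1 Negative-only of 5 WT Negative peaks. Cdh5 went the other way, with 1 Middle-only of 2 WT Middle and 5 Negative-only of 6 WT Negative peaks. Epiblast genes had 41.2% of 51 and 38.3% of 47, with 6 genes on the Middle side and 4 on the Negative side. By the strongest peaks 2 were on the Middle side and 4 on the Negative side. Lin28a, which blocks let-7 maturation, had 4 Middle-only of 8 WT Middle peaks and 3 shared WT Negative peaks. Nanog leaned to the Negative side, with 2 shared WT Middle peaks and 3 Negative-only of 5 WT Negative peaks. Surface ectoderm and amnion genes had 41.2% of 51 and 48.2% of 56. In that list Tfap2a, a factor of surface ectoderm and neural crest, had 2 shared WT Middle peaks and 6 Negative-only of 8 WT Negative peaks, while Cdh1 leaned the other way. Trophoblast genes had 49.2% of 63 (36.4 to 62.1%) and 55.4% of 74 (43.4 to 67.0%). Among the strongest peaks they had 39.3% of 28 WT Middle (21.5 to 59.4%) and 38.2% of 34 WT Negative peaks (22.2 to 56.4%). The Negative-only shares were above those over all genes, while the intervals of the Middle-only shares held the values over all genes. Germ cell genes had 48.3% of 29 and 46.2% of 26. Ubiquitous genes had 33.3% of 75 WT Middle (22.9 to 45.2%) and 31.7% of 63 WT Negative peaks (20.6 to 44.7%) unshared. Both were under the values over all genes, though the interval of the Negative-only share held the value over all genes.

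Promoters open in 1 list only were counted by gene, over all windows a gene has. Of 16457 protein-coding genes with a promoter window, 951 (5.78%) had a peak on one in the Middle list only, 1128 (6.85%) in the Negative list only, 7279 in both and 7099 in neither. Of 17 visceral endoderm genes with a window 6 were open in the Middle list only, namely Afp, Amn, Apoa1, Apoc2, Cubn and Fgb, and none in the Negative list only. Amn encodes amnionless, the partner of cubilin, and Apoa1 and Apoc2 encode apolipoproteins. Of 10 endoderm factors Foxa1, Onecut1 and Otx2 were open in the Middle list only and none in the Negative list only. Of 24 neural plate genes 12 were open in the Negative list only, among them Sox1, Sox2, Pax2, Pax6, Zic1, Zic5, En1, Gbx2 and Hes5, and 1, Meis1, in the Middle list only. The endoderm surface list had peak shares near those over all genes. None of its 21 genes with a window were open in the Middle list only and 2, Cxcr4 and Rab25, in the Negative list only. Trophoblast genes had 1 of 13 in the Middle list only and 4 in the Negative list only, and ubiquitous genes 2 of 23 and 4. The remaining 10 lists had 0 to 2 genes open in the Middle list only and 0 to 3 in the Negative list only. The peaks on these windows were often low. The Fgb peak scored 17.2 and the Afp peak 3.10 in WT Middle, where the median of the list is 7.47, and the Zic1 peak 7.08 and the Sox2 peak 4.16 in WT Negative, where the median is 6.07.

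The forkhead motif TGTTTAC was counted in these windows with 1 window per gene and none overlapping, 24492 in all. It was in 48 of 1148 windows open in the Middle list only (4.18%), in 27 of 1382 open in the Negative list only (1.95%), in 2.57% of those open in both and in 4.44% of those open in neither, against 3.76% of all windows. The median GC content differed alongside, at 57.3% in windows of the Middle list only, 59.3% in those of the Negative list only, 62.3% in both and 47.7% in neither. Within windows under 50% GC the motif was in 27 of 239 of the Middle list only (11.3%, 7.58 to 16%), 10 of 189 of the Negative list only (5.29%, 2.57 to 9.51%), 6.13% of both and 5.52% of neither. Between 50 and 60% GC the shares were 3.71% in the Middle list only and 2.22% in the Negative list only, and at 60% or more 1.05% and 0.767%, with intervals that overlap widely. The GC limits were set after the values were seen. In windows of the Middle list only and in those of the Negative list only, AGATAA was in 10.4% and 7.02% (11.7% of all windows), ACAAAG in 16.6% and 16.2% (19.2% of all), TCACAC in 12.0% and 11.6% (14.4% of all) and TATTTAC in 2.87% and 1.45% (3.21% of all), so AGATAA and both forkhead motifs had the higher share in windows of the Middle list only.

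**Figure D5:**
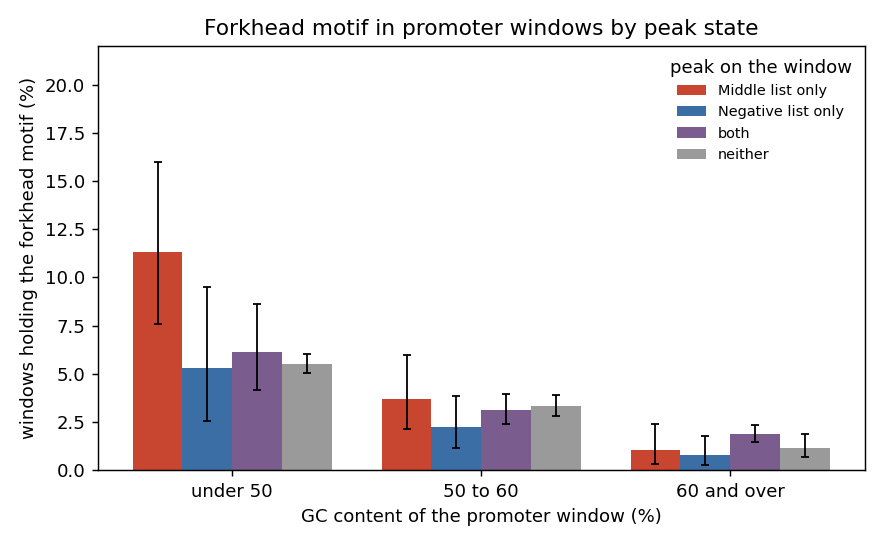
Share of promoter windows that hold TGTTTAC on either strand (vertical axis, percent) by GC content of the window (horizontal axis) and by the list with a peak on it; bars are Clopper-Pearson 95% intervals. Under 50% GC the Middle-list-only windows stand at 11.3% and the Negative-list-only windows at 5.29%.

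Over all protein-coding genes outside the crowded bins, the largest excess of Middle-only over Negative-only peaks stood at Pramel genes, a family of near-identical copies, and at predicted genes with Gm names. Pramel35 had 28 Middle-only of 30 WT Middle peaks and 1 Negative-only of 3 WT Negative peaks, and Pramel33, Gm6346, Gm6348, Gm16513, Gm10377, Gm17026, Gm19428 and Gm7697 had 18 to 26 Middle-only peaks. Reads from near-identical copies can be placed in any of them, so these counts are uncertain. Llgl1, a cell polarity gene, had 20 Middle-only of 32 WT Middle peaks and 2 Negative-only of 12 WT Negative peaks. Among those at the other end were Zswim2, Clybl, Sdk2, Lef1, Ptprt, Ntrk2, Car10, Mef2c and Pknox2. Ntrk2, a neurotrophin receptor, had 1 shared WT Middle peak and 9 Negative-only of 10 WT Negative peaks. Clybl, a mitochondrial enzyme gene, had 4 Middle-only of 8 WT Middle and 16 Negative-only of 20 WT Negative peaks.

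The 20 strongest Middle-only peaks of all, with scores of 84.4 to 231, lay on no promoter window and 14 of them inside a gene. In dHx Negative 15 of the 20 had a peak, as many as in dHx Middle and in WT High, so the very strongest did not follow the gate. The first, chr16:93591105-93591867 inside Setd4, a methyltransferase gene, was in WT High, dHx High and dHx Middle and not in dHx Negative. The 20 strongest Negative-only peaks scored 51.2 to 185, 12 of them were in dHx Negative and 6 in dHx Middle, and 5 were in none of the 4 lists. The first, chr9:95425804-95426031 near Chst2, was in none of them.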

How the data were processed

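ATAC-seq libraries of 38-bp paired reads were made from sorted E7.5 cells, per the labels' protocols. STAR 2.5.2a, MACS2 and mm10 are named in the submitters' processing notes, without roles or settings in the sources used here. Each of the 6 groups was deposited as 1 peak list whose peak names hold the word Pooled, so replicates cannot be separated and the read depth is unknown. The score column of the deposited lists has no name. It was read from its values as a p-value or q-value (−log10) from the authors' peak caller, because its steps follow a Poisson tail, and it grows with depth. The Poisson mean was fitted to the steps between the 40 lowest distinct scores and serves as the implied background.

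Lines with equal coordinates were merged with the top score kept, and chromosomes 1 to 19 were used. Overlap at 1 bp, gene assignment within 100 kb (20665 autosomal protein-coding RefSeq genes) and shares with exact binomial intervals were computed in Python 3.11.15 with pandas 2.3.3 and scipy 1.17.1. The overlap, assignment and background steps were tested on simulated peaks. Promoter sequences came from RefSeq (GRCm38.p6), with windows for 16457 of these genes. The 16 gene lists (362 entries, 321 genes, 38 of them in more than 1 list) were matched by symbol, all found. Members and lists were chosen with earlier results of these data known. Named genes are Foxa2, up to 4 members per list with the largest and up to 3 with the smallest net number (Middle-only minus Negative-only peaks), and the 10 largest and 10 smallest over all genes. Further genes were named after their values were seen: Foxa1, Otx2, Sox2, Pax6, Ttr, Afp, Fgb, Cubn, Cxcr4, 9030622O22Rik and the genes listed by promoter state. A few genes that this rule names are not reported here. No groups were tested against each other, since a group is 1 list.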

Additional observations from a re-analysis of the deposited data

Results flagged for a closer look

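Chromosome X lay outside the comparison above and stood apart in WT Middle. The WT Middle list held 4222 peaks on chromosome X, 8.66% of all its peaks, and the WT Negative list held 1130, 2.86% of its peaks. Of these X peaks 83.5% had no WT Negative peak in WT Middle (interval 82.3 to 84.6%), and 36.5% had no WT Middle peak in WT Negative (33.7 to 39.4%). In WT Middle 829 of the X peaks lay in 3 bins of 1 Mb. The other 4 lists held 1059 to 2180 X peaks. The result was singled out because it is a signal in data that the comparison does not use, above the level of the WT Negative list.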

How the results depend on the processing

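The shares of unshared peaks moved with how a shared peak is defined and with list length. In the settings where the lists searched differed in length, the WT Middle share was the higher one. With lists of equal length both shares were about equal, as such lists have about equal numbers left over, so these settings cannot show which is higher. In the order whole WT Middle, whole WT Negative, top 20000 WT Middle and top 20000 WT Negative, a reciprocal overlap of 50% gave 61.5%, 55.3%, 42.3% and 37.1%, and counting a peak within 500 bp as shared gave 44.7%, 36.7%, 27.9% and 20.2%. With chromosomes X and Y the whole WT Middle share was 50.9% and the top WT Negative share 20.5%. Without the crowded bins the top shares were 29.7% (WT Middle) and 22.3% (WT Negative). A score of 5 or more in both lists gave 45.8% and 37.9%, equal list length 43.8% and 43.7%, and an equal fold over the implied background 45.3% for WT Middle. The 10000 strongest peaks gave 18.1% and 9.64%, the 30000 strongest 37.5% and 31.9%, and the 20000 strongest looked up in the 20000 strongest of the other list 42.3% and 42.2%. The other 5 values stayed within their intervals.

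The number of genes leaning to the Middle side minus those leaning to the Negative side kept its sign for endoderm factors (13; 7 within 20 kb), endoderm surface genes (11; 7 within 20 kb), visceral endoderm (17; 13 to 17) and neural plate (-17; -10 with the top 20000 peaks). It changed sign for blood and endothelium (1; -2 within 20 kb, -1 with the top 20000), epiblast (2; -2 with the top 20000) and surface ectoderm (-2; 3 with every gene within 100 kb). With every gene within 100 kb it was 4127 for all genes (2034 as reported), 8 for BMP, -5 for streak, -1 for lateral mesoderm, 0 for blood and for trophoblast, 1 for epiblast, -2 for germ cells and 11 for ubiquitous genes. Within 20 kb it was 0 for Nodal, 2 for BMP, -1 for surface ectoderm and -3 for germ cells. With the top 20000 peaks it was 922 for all genes, 0 for node, -4 for hedgehog, -4 for streak, -6 for lateral mesoderm, -1 for surface ectoderm, -1 for trophoblast, -2 for germ cells and 2 for ubiquitous genes. With reciprocal overlap it was 1 for Nodal, 3 for BMP, 2 for blood and -1 for surface ectoderm. The causes were not tested. Of the per-list shares, 28 of 68 Middle-only and 31 of 68 Negative-only values left the interval of the value reported. Counting every annotated start, an alternative added after the data were seen, put TGTTTAC in 14.9% of Middle-list-only windows under 50% GC and in 5.51% of Negative-list-only ones, and 21 of these windows of any GC content belong to 9030622O22Rik.

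No paired analysis was possible because each list pools 2 samples, and for the same reason no replicate was left out. Motif counts in whole peaks were not run, since no genome sequence was used here. The depth of the lists is unknown, so a region missing from a list was not detectable at that depth and is not shown to be closed.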
